A study of Mus musculus with 9 samples.

Results

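Here 10 genes that help to set whether a cell lives or dies were followed in mouse macrophages, in the resting state (M0), after inflammatory polarization (M1) and after polarization under photobiomodulation (M1 + PBM), in which the cells were irradiated with a laser. The genes were taken by name as Bcl2a1a, Bcl2a1b, Bcl2a1d, Bcl2l1, Mcl1, Bcl2l11, Bax, Bak1, Birc3 and Cflar. They were chosen with earlier results of these data known, so the shares of them that differ are not those of a blind choice. All 10 members had a row of their own among the 55655 rows of the deposited tables. The macrophages were wild-type bone marrow-derived macrophages (BMDMs) from the femur and tibia of C57BL/6 mice aged 6 to 8 weeks, differentiated for 7 days with M-CSF, the growth factor of macrophages, at 10 ng/mL. The M0 cells were labelled as not treated with PBM. The M1 cells received lipopolysaccharide (LPS) and interferon-γ (IFN-γ), and M1 + PBM cells received the same stimuli together with the irradiation. Both of these groups were examined at 12 hours of stimulation. Each group held 3 libraries. The labels do not say whether replicates came from separate mice or cultures, so that the p-values measure the spread between these libraries, which may be technical.

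Mitochondrial apoptosis is decided by the BCL2 family. Pro-survival members (Bcl2a1, Bcl2l1, which encodes BCL-XL, and Mcl1) hold the effectors Bax and Bak1 in check, and BH3-only proteins such as BIM (Bcl2l11) neutralise the pro-survival members until Bax and Bak1 open the outer mitochondrial membrane. A second route starts at death receptors, where Cflar encodes c-FLIP, a relative of caspase-8 that blocks its activation, and Birc3 encodes cIAP2, a ubiquitin ligase of the tumour necrosis factor receptor complex. Bcl2a1, Birc3 and Cflar are known targets of NF-κB, the transcription factor that LPS activates in macrophages. Mice carry several near-identical copies of Bcl2a1, of which Bcl2a1a, Bcl2a1b and Bcl2a1d are members here.

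The Bcl2a1 copies are shown first, because their likeness limits how far their values can be told apart. In GENCODE release M21 on GRCm38 all of them lie on chromosome 9, Bcl2a1a at chr9:88956900-88962419 and Bcl2a1b at chr9:89199209-89207827 on the plus strand, and Bcl2a1d at chr9:88723285-88731914 on the minus strand. Their coding sequences have the same length of 519 bases and differ at 12 positions in all. Bcl2a1a and Bcl2a1b differed at 11 coding bases (97.9% identity), Bcl2a1a and Bcl2a1d at 7 (98.7%), and Bcl2a1b and Bcl2a1d at 6 (98.8%). The first 120 coding bases hold 7 of the 12 variable positions, the densest stretch of that length. They are exonic in each gene, at chr9:88957051-88957170 in Bcl2a1a, chr9:89199360-89199479 in Bcl2a1b and chr9:88731600-88731719 on the minus strand in Bcl2a1d. In the sequences the variable positions are in capitals.
Bcl2a1a: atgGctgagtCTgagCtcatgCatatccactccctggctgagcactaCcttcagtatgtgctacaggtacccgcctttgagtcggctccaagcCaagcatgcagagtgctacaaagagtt
Bcl2a1b: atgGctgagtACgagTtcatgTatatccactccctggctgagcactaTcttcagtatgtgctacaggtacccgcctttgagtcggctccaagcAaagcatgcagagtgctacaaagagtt
Bcl2a1d: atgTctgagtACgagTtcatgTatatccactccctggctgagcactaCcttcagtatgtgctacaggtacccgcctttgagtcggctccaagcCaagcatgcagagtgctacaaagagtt
Counted from 1 at the first coding base, Bcl2a1d carried G4T against Bcl2a1b, a position at which Bcl2a1a has the base of Bcl2a1b. The substitutions A11C, C12T, T16C and T22C against Bcl2a1b were found in Bcl2a1a and not in Bcl2a1d, while both carried T48C and A94C. Between these positions and after them the copies read alike over long stretches.

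Reads from the shared stretches cannot be given to 1 copy. Of the 100-base windows of the annotated transcript, 43.5% for Bcl2a1a, 31.1% for Bcl2a1b and 54.7% for Bcl2a1d occurred letter for letter in another Bcl2a1 transcript. A further gene model, Gm29094, overlaps Bcl2a1b on the same strand and holds 42.2% of the windows of Bcl2a1b, which leaves 43.2% that occur in Bcl2a1b alone. Gm29094 was listed at 2.11, 3.53 and 2.24 FPKM in M0 replicates 1, 2 and 3, at 4.01, 6.99 and 7.44 in M1, and at 3.88, 4.83 and 5.61 in M1 + PBM. FPKM is the number of fragments relative to the length of the transcript and the depth of the library. How the reads were divided between the copies is not given in the sources used here, so the split between the Bcl2a1 rows is uncertain, and their sum is given beside each. Another copy, Bcl2a1c, stood between 0 and 0.599 FPKM in the 9 libraries.

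The copies are also alike upstream of their start. The stretches upstream of every annotated start of the 3 genes are shown because the genes nevertheless stood at very different levels in M0. They come from the RefSeq promoter windows on GRCm38, at chr9:88956714-88956855 for Bcl2a1a, chr9:89199023-89199164 for Bcl2a1b and chr9:88731915-88732050 on the minus strand for Bcl2a1d, and bases that are not shared by all 3 are in capitals.
Bcl2a1a: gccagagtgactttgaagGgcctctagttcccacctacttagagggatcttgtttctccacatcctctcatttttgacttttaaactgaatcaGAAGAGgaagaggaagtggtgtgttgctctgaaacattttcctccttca
Bcl2a1b: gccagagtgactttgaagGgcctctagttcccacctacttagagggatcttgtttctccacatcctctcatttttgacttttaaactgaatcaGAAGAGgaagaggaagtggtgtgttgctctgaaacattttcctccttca
Bcl2a1d: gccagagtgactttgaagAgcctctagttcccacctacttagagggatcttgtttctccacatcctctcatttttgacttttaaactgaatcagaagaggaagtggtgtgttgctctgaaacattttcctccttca
Over these 142 bases Bcl2a1a and Bcl2a1b did not differ at any position. Bcl2a1d had 136 bases, with 1 mismatch and 6 bases of Bcl2a1b absent. RefSeq promoter windows, from 250 bases before to 50 after a start, were found for all 10 members, and were searched on both strands for the NF-κB (κB) consensus, for the GAS motif TTCNNNGAA and for the ISRE core GAAANNGAA, which can overlap each other. No Bcl2a1 window held any of these motifs. The κB consensus was found in 1 of 3 windows of Bcl2l1 and the ISRE core in the window of Cflar. Of the 32851 windows of all genes, 8.46% held the κB consensus, 8.30% the GAS motif and 8.56% the ISRE core.

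The libraries were checked before the members were compared. Summed macrophage markers (Adgre1, Csf1r, Cd68 and 5 others) ranged from 5499 to 10341 FPKM over the 9 libraries. Lyz2 was the largest part of this sum in every library (3459 to 8773 FPKM), and the genes of the list did not all move alike. Adgre1 stood at 299 to 326 FPKM in M0 and at 618 to 711 in M1. Cd68 went the other way, from 656 to 931 FPKM in M0 and from 370 to 594 in M1. The sum of 9 M1 activation genes, such as Nos2, Cxcl9 and Tnf, ranged from 1844 to 2015 FPKM in M1 and from 1270 to 1806 in M1 + PBM. Each of the neutrophil, dendritic, lymphoid and erythroid lists summed to at most 5.28 FPKM in every library. M0 replicate 3 stood apart. Its activation genes summed to 301 FPKM against 33.3 and 29.6 in M0 replicates 1 and 2, its 8 stromal genes to 191 FPKM against 7.07 and 5.81, and it had the highest of the M0 values for Bcl2a1a, Bcl2l1, Mcl1, Bax, Bak1, Birc3 and Cflar. The stromal sum ranged from 13.6 to 17.2 FPKM in M1 and from 6.85 to 29.6 in M1 + PBM. The part of these signals in the M0 levels was not tested. The differences of the shifted members, the counts of shifted genes and the pro-survival to effector ratio are given with and without that library. Most differences of the further death-pathway genes between M1 and M0 are given with that library only. In bulk RNA, fewer cells of a type and less RNA per cell cannot be told apart.

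M0 was deposited apart from the other 2 groups, and whether its libraries were normalised together with those of M1 is not given in the sources used here, so their difference was described and not tested. A gene was counted as shifted where the 3 libraries of M1 did not overlap the 3 of M0 and the means of log2(FPKM + 1) differed by at least 1. Of the 10 members, 6 were shifted higher in M1 and 0 lower, namely Bcl2a1a, Bcl2a1b, Bcl2a1d, Cflar, Birc3 and Bak1. Over the 13915 rows in which 3 or more libraries reached an FPKM of 1, 7.81% were shifted higher and 13.7% lower. The median difference over all rows was -0.34, and that over the members 1.26. The Bcl2a1 rows make up 3 of the 6 and weigh on this median, although their reads cannot be fully told apart. Summed into 1 row, Bcl2a1 was shifted higher as well, by 2.36. Scaling the 9 libraries by median of ratios brought the median over all rows to 0.0049 and changed the split of all rows from 1087 higher and 1904 lower to 1550 higher and 1024 lower, and the same 6 members were shifted. Without M0 replicate 3 these 6 were again shifted higher, by 4.69 for Bcl2a1a, 1.44 for Bcl2a1b, 3.88 for Bcl2a1d, 2.79 for Cflar, 1.98 for Birc3 and 1.26 for Bak1, and Bcl2l11 was shifted lower. Over the 13915 rows, 1227 were then shifted higher and 2027 lower. The ratios of the M1 to the M0 mean below became 40.0 for Bcl2a1a, 16.4 for Bcl2a1d, 2.46 for Bcl2a1b, 7.56 for Cflar and 4.39 for Birc3.

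**Figure D1:**
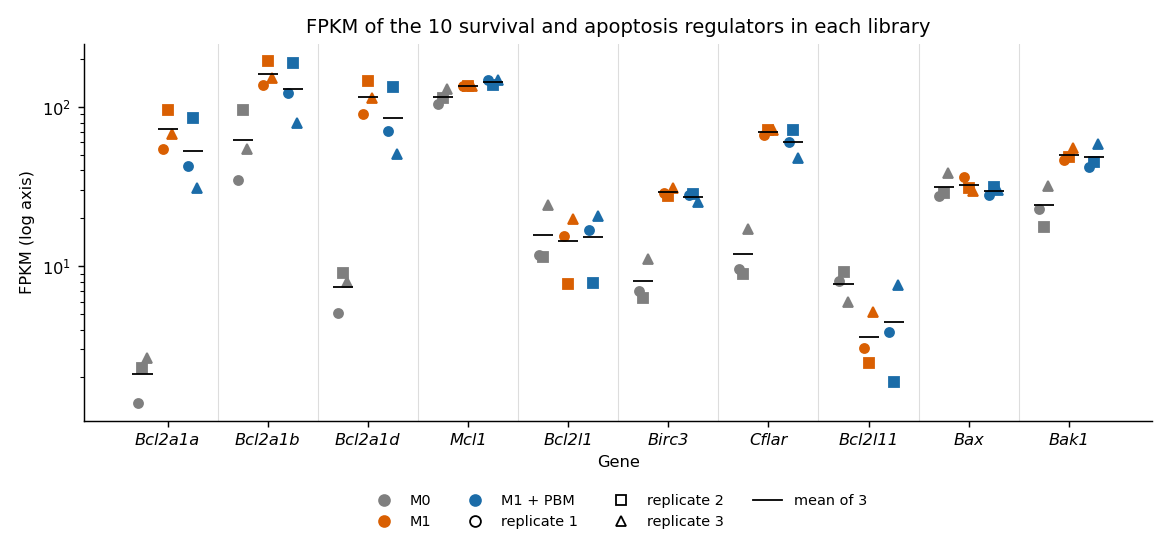
FPKM (log axis) of the 10 members in each of 9 libraries, with circles, squares and triangles for replicates 1, 2 and 3 and a bar at the mean of 3. Bcl2a1a, Bcl2a1d, Cflar, Birc3, Bak1 and, by a small margin, Mcl1 lie higher in both M1 groups than in M0 with no overlap. The M1 and M1 + PBM points overlap for all members but Mcl1.

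The pro-survival Bcl2a1 genes held the widest differences. Bcl2a1a stood at 1.37, 2.28 and 2.66 FPKM in M0 replicates 1, 2 and 3, at 54.9, 96.1 and 67.9 in M1, and at 42.7, 85.1 and 31.2 in M1 + PBM. All M1 and M1 + PBM libraries lay far above the M0 libraries, and the ratio of the M1 to the M0 mean was 34.7. Bcl2a1d stood at 5.07, 9.14 and 7.91 FPKM in M0, at 90.6, 145.6 and 113.8 in M1, and at 71.2, 134.3 and 50.5 in M1 + PBM. Its M1 mean was 15.8 times its M0 mean, again without overlap. Bcl2a1b, the copy with the highest level in every library, stood at 34.9, 96.6 and 54.7 FPKM in M0, at 137.5, 194.8 and 152.6 in M1, and at 123.1, 189.7 and 80.0 in M1 + PBM. Its M1 mean was 2.60 times its M0 mean, and M1 + PBM replicate 3 fell within the M0 range. The differences of mean log2(FPKM + 1) between M1 and M0 were 4.56 for Bcl2a1a, 3.82 for Bcl2a1d and 1.47 for Bcl2a1b, with pooled SDs of 0.37, 0.36 and 0.54 (n = 3 a group).

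The sum of the 3 rows depends less on how shared reads were divided among them, but is not free of it. The annotated transcripts of Bcl2a1a, Bcl2a1b and Bcl2a1d differ in length (819, 817 and 863 bases). Shared reads that were given to Gm29094, dropped or counted more than once would also change the sum. Summed, Bcl2a1 stood at 41.3, 108.0 and 65.2 FPKM in M0, at 283.0, 436.5 and 334.3 in M1, and at 237.0, 409.1 and 161.7 in M1 + PBM. The M1 sum was 4.91 times the M0 sum on average. The make-up of the sum differed between M0 and the polarized groups. Bcl2a1b made up between 83.8% and 89.4% of it in M0, between 44.6% and 48.6% in M1 and between 46.4% and 52.0% in M1 + PBM. Bcl2a1a made up between 2.11% and 4.07% in M0 and between 18.0% and 22.0% in the other 6 libraries.

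**Figure D2:**
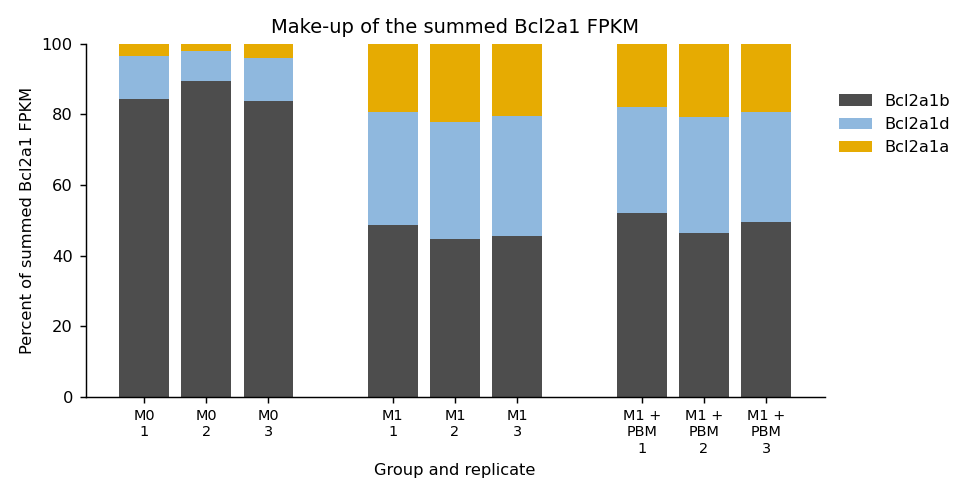
Share of each Bcl2a1 row in the summed Bcl2a1 FPKM (percent) in each library. Bcl2a1b holds over 83% in each M0 library and between 44.6% and 52.0% in each M1 and M1 + PBM library.

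The other pro-survival members were not shifted. Mcl1, whose protein is short-lived and replaced by constant synthesis, stood at 104.2, 115.0 and 129.7 FPKM in M0, at 135.8, 135.0 and 135.0 in M1, and at 147.9, 138.0 and 148.2 in M1 + PBM. The M1 values lay above the M0 values without overlap, with a difference of 0.22 on the log2 scale as deposited and 0.66 after median-of-ratios scaling, both short of the limit of 1. Its 3 M1 libraries were the closest of any member in any group, with an SD of 0.468 FPKM around a mean of 135.3. Bcl2l1 stood at 11.8, 11.5 and 24.2 FPKM in M0, at 15.6, 7.74 and 19.9 in M1, and at 17.0, 7.82 and 20.8 in M1 + PBM, with full overlap between M0 and M1. Its difference between M1 and M0 was -0.14 as deposited, 0.27 after median-of-ratios scaling, 0.19 without M0 replicate 3 and 0.23 without M1 replicate 2, so no direction is given.

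Among the effectors, Bak1 was shifted and Bax was not. Bak1 stood at 23.0, 17.8 and 31.8 FPKM in M0, at 46.7, 48.5 and 55.1 in M1, and at 42.4, 45.1 and 58.5 in M1 + PBM. Its difference of 1.05 lay just inside the limit, and it fell to 0.86 without M0 replicate 2 and to 0.98 without M1 replicate 3, where Bak1 was no longer shifted. Bax stood at 27.6, 28.8 and 38.6 FPKM in M0, at 36.2, 31.1 and 29.8 in M1, and at 28.2, 31.6 and 30.0 in M1 + PBM, a difference between M1 and M0 of 0.041 with overlapping groups. It was 0.47 for Bax after median-of-ratios scaling, where that of Bak1 was 1.48, and between -0.047 and 0.19 with 1 library left out, so no direction is given for Bax. Bcl2l11, the BH3-only member, was the 1 member whose M1 libraries all lay below its M0 libraries. It stood at 8.10, 9.17 and 5.98 FPKM in M0, at 3.05, 2.48 and 5.19 in M1, and at 3.85, 1.88 and 7.60 in M1 + PBM. Its difference of -0.96 lay just outside the limit, and passed it without M0 replicate 3 (-1.12), without M1 replicate 3 (-1.20) and with a pseudocount of 0.1 (-1.14), while after median-of-ratios scaling it shrank to -0.59.

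The members that act at death receptors were both higher in M1. Cflar stood at 9.59, 8.97 and 17.1 FPKM in M0, at 66.9, 71.5 and 71.9 in M1, and at 60.2, 72.4 and 48.2 in M1 + PBM. Its M1 mean was 5.90 times its M0 mean, a difference of 2.52 on the log2 scale. Every 100-base window of the annotated processed pseudogene Gm9845 (499 of 499) also occurs in a Cflar transcript, so reads of Cflar from these bases cannot be told from reads of Gm9845. The row of Gm9845 ran beside that of Cflar, from 8.22 to 15.6 FPKM in M0, from 73.3 to 83.6 in M1 and from 53.4 to 80.0 in M1 + PBM. Birc3 stood at 7.01, 6.30 and 11.0 FPKM in M0, at 29.0, 27.7 and 30.9 in M1, and at 28.0, 28.5 and 25.2 in M1 + PBM. Its M1 mean was 3.60 times its M0 mean, a difference of 1.76. In both genes M0 replicate 3 was the highest M0 library.

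The order of the levels therefore changed between groups. In M0 the mean FPKM was highest for Mcl1 (116.3 ± 12.8, SD, n = 3), followed by Bcl2a1b (62.0 ± 31.5) and Bax (31.7 ± 6.01), and lowest for Bcl2a1a (2.10 ± 0.659). From Bcl2a1b down to Bcl2a1d each M0 member overlapped the next in the order across libraries. Within every M0 library, however, the order Bcl2a1b, Bax, Bak1, Bcl2l1, Cflar and Birc3 held. The places of Birc3, Bcl2l11 and Bcl2a1d changed from library to library. In M1 the order was led by Bcl2a1b (161.6 ± 29.7), with Mcl1 (135.3 ± 0.468) and Bcl2a1d (116.7 ± 27.6) next, and Bcl2l11 was lowest (3.57 ± 1.43). Mcl1, Bcl2a1d, Bcl2a1a and Cflar overlapped one after the other in M1. In M1 + PBM Mcl1 (144.7 ± 5.80) stood above Bcl2a1b (130.9 ± 55.2), with overlapping libraries.

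Ratios within a library do not depend on how that library was scaled. The summed FPKM of Bcl2a1a, Bcl2a1b, Bcl2a1d, Bcl2l1 and Mcl1 over that of Bax and Bak1 was 3.11, 5.03 and 3.11 in M0, 5.24, 7.28 and 5.76 in M1, and 5.69, 7.24 and 3.74 in M1 + PBM. All M1 libraries lay above all M0 libraries, while M1 + PBM overlapped both. The mean log2 of this ratio was 0.73 higher in M1 than in M0, and 0.61 higher without M0 replicate 3. Mcl1 alone over Bax and Bak1 went the other way, with 2.06, 2.47 and 1.84 in M0, 1.64, 1.70 and 1.59 in M1, and 2.10, 1.80 and 1.68 in M1 + PBM, so that all M1 libraries lay below all M0 libraries. The ratio of Bcl2l1 to Bcl2l11 was 1.46, 1.25 and 4.05 in M0, 5.12, 3.12 and 3.83 in M1, and 4.42, 4.17 and 2.74 in M1 + PBM, and M0 overlapped M1 through M0 replicate 3. The Bcl2a1 rows made up 34.0% ± 10.6 (SD, n = 3) of the pro-survival sum in M0, 69.6% ± 5.22 in M1 cells and 60.5% ± 12.5 under PBM. The ratio of Bak1 to Bax was between 0.617 and 0.835 in M0, between 1.29 and 1.85 in M1 and between 1.43 and 1.95 in M1 + PBM. The ratio of Cflar to Casp8, the caspase that its product blocks, was 0.643 ± 0.179 (SD, n = 3) in M0, 1.95 ± 0.489 in M1 cells and 1.83 ± 0.677 under PBM, with all M1 libraries above all M0 libraries. That of Birc3 to Birc2, which encodes the related cIAP1, was between 1.45 and 2.14 in M0, between 5.64 and 6.46 in M1 and between 4.79 and 5.20 in M1 + PBM, so that no group overlapped another. Birc3 itself overlapped between M1 and M1 + PBM. Birc2 stood at 4.70, 4.91 and 4.78 FPKM in M1 and at 5.39, 5.95 and 5.08 in M1 + PBM. It was thus higher without overlap, as were 8.51% of all rows. No test was run on these ratios.

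**Figure D3:**
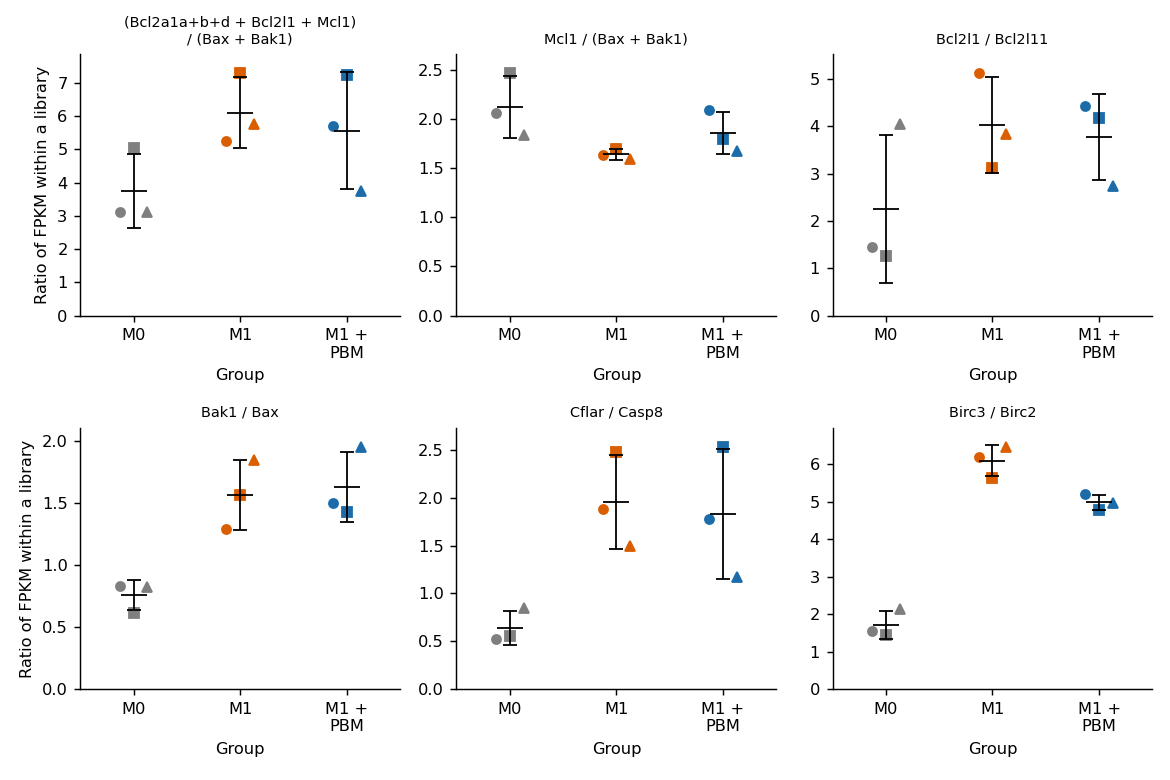
Ratios of FPKM within each library, with symbols for replicates as in the plot of member FPKM and bars at the mean ± SD (n = 3). The M1 points lie above the M0 points in 4 of the 6 panels, below them for Mcl1 over Bax and Bak1, and overlap them for Bcl2l1 over Bcl2l11. In the Birc3 to Birc2 panel alone do the M1 + PBM points (4.79 to 5.20) lie apart from the M1 points (5.64 to 6.46), while the FPKM of Birc3 itself overlaps between these groups.

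The comparison of M1 + PBM with M1 asked which genes the irradiation changed in polarized macrophages. The study's thresholds, P of 0.05 or less before adjustment and a log2 fold change of 1 or more in size, were applied to limma fits over the 12238 rows in which 3 or more of the 6 libraries reached an FPKM of 1. All 10 members passed this filter and none was called. No member had an adjusted p under 0.05 (Benjamini-Hochberg over all rows, range 0.90 to 0.98), and 0 of 10 had an unadjusted p of at most 0.05. Over all rows, 0.261% were called, 0.00817% had an adjusted p under 0.05 and 4.44% an unadjusted p of at most 0.05. This fit did not use the replicate number. With the replicate number as a block again no member was called, and the adjusted p of the members ran from 0.58 to 0.81. Bcl2a1a alone of the 10 then had an unadjusted p of at most 0.05 by limma, beside 8.07% of all rows. The median log2 fold change of the members was -0.10 beside 0.058 over all rows, with 7 members lower and 3 higher. The Bcl2a1 rows, which share sequence, are 3 of the 7 lower. Over the 7 other members the median was -0.051, with 3 of them higher. Bcl2l1, Bcl2l11 and Bak1 changed sign under some alternatives, and the number of members higher ran from 1 to 4 over them.

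The Bcl2a1 rows were lower in M1 + PBM than in M1 of the same replicate number in 3 of 3 replicates, but their groups overlapped. The log2 fold change was -0.54 (SE 0.39, 95% interval -1.47 to 0.39) for Bcl2a1a, -0.54 (SE 0.37, -1.42 to 0.34) for Bcl2a1d and -0.37 (SE 0.32, -1.13 to 0.39) for Bcl2a1b. That of the sum was -0.46 (SE 0.35, adjusted p = 0.90 by limma). The intervals include 0 and, for Bcl2a1a, Bcl2a1b and Bcl2a1d, a fall beyond the study's threshold of 1. The replicates differed widely, with changes of the sum of -0.25, -0.093 and -1.04 in replicates 1, 2 and 3. With the replicate block their intervals were narrower, -1.05 to -0.030 for Bcl2a1a, -0.88 to 0.13 for Bcl2a1b, -1.11 to 0.027 for Bcl2a1d and -0.99 to 0.066 for the sum. Without M1 + PBM replicate 3 the change of the sum was -0.15, and without M1 + PBM replicate 2 it was -0.82. In the latter fit Bcl2a1a, Bcl2a1b, Bcl2a1d and Cflar had an unadjusted p of at most 0.05 (0.0147, 0.0336, 0.0118 and 0.0400 by limma, adjusted p of 0.60 to 0.63). So did 924 of the 11968 rows tested there (7.72%). With the replicate number as a block, Bcl2a1a had an unadjusted p of 0.0419 (adjusted p = 0.58, limma). The sum of the M1 activation genes was lower in every M1 + PBM library (1270 to 1806 FPKM) than in every M1 library. Within M1 + PBM it was lowest in replicate 3 and highest in replicate 2, as was the summed Bcl2a1. Gbp2 was the largest part of the activation sum (676.7, 825.2 and 610.6 FPKM in M1 + PBM), and the genes of the list did not all move alike. In M1 + PBM replicates 1, 2 and 3 Tnf stood at 220.7, 417.0 and 106.5 FPKM, and Cxcl10 at 305.5, 281.6 and 362.8. The part of activation in the Bcl2a1 values was not tested.

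**Figure D4:**
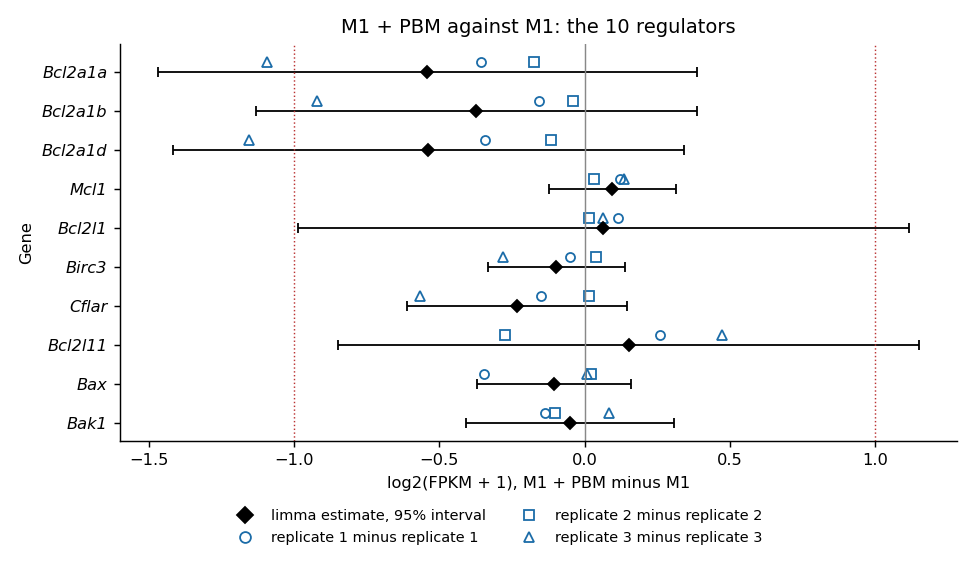
Change in log2(FPKM + 1) from M1 to M1 + PBM for the 10 members, as the limma estimate with its 95% interval (black) and as the difference of same-numbered replicates (blue). Dotted lines mark the study's threshold of 1 in either direction. The intervals are from the fit without the replicate block, and all 10 include 0. With the block that of Bcl2a1a is -1.05 to -0.030. Replicate 3 shows the largest fall for Bcl2a1a, Bcl2a1b, Bcl2a1d, Birc3 and Cflar.

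Mcl1 was the 1 member whose M1 + PBM libraries all lay on one side of its M1 libraries. It was higher by 0.096 on the log2 scale (SE 0.091, adjusted p = 0.90 by limma), and its exact two-sided permutation p of 0.1 is the smallest that 3 libraries against 3 can give. Over all rows, 8.51% were higher without overlap and 2.52% lower. After median-of-ratios scaling the difference of Mcl1 was 0.020. The intervals of Mcl1 (-0.12 to 0.31), Birc3 (-0.33 to 0.14), Bax (-0.37 to 0.16), Bak1 (-0.41 to 0.31) and Cflar (-0.61 to 0.15) lay within the study's threshold of 1 in both directions. Cflar changed by -0.23 (SE 0.16), with -0.15, 0.016 and -0.57 in replicates 1, 2 and 3. Birc3 changed by -0.097 (SE 0.098), Bax by -0.11 (SE 0.11) and Bak1 by -0.051 (SE 0.15).

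For Bcl2l1 and Bcl2l11 the spread within groups exceeded the difference between them. Bcl2l1 differed by 0.065 (SE 0.44, 95% interval -0.99 to 1.12), with replicate 2 low in both groups (7.74 and 7.82 FPKM) and replicate 3 high in both (19.9 and 20.8 FPKM). Within same-numbered replicates its changes were 0.12, 0.014 and 0.064, and the fit with the replicate block gave an SE of 0.076. Bcl2l11 differed by 0.15 (SE 0.42, -0.85 to 1.15), with changes of 0.26, -0.27 and 0.47, and its replicate 2 was also the lowest and its replicate 3 the highest in both groups.

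Around the members, 41 further genes of the death pathways were grouped by role. Of these, 32 were tested in M1 + PBM against M1. None was called, with 19 higher and 13 lower and a median log2 fold change of 0.026. An unadjusted p of at most 0.05, which 4.44% of all rows had, was found for 3 of the 32, named here after their values were seen. Bad, a BH3-only gene, was higher by 0.61 (SE 0.18), and Htra2, a protease released from mitochondria, by 0.34 (SE 0.14). Tnfaip3, which encodes the NF-κB inhibitor A20, differed by -0.63 (SE 0.21). The unadjusted p from limma was 0.0143 for Bad, 0.0431 for Htra2 and 0.0231 for Tnfaip3, and the adjusted p was 0.90 for each. Which genes passed depended on the setting. With the replicate block 4 of the 32 passed, as Mlkl was added, beside 8.07% of all rows. After median-of-ratios scaling 4 passed, beside 4.33% of all rows, with Fas (unadjusted p = 0.0220, limma) and Mlkl (0.0327) added and Htra2 (0.0560) lost. With 1 library left out the number ran from 1 to 4, beside 2.10% to 9.11% of all rows, and Bad was among them each time. Bad stood at 4.76, 3.55 and 5.13 FPKM in M1 and at 6.50, 6.29 and 9.40 in M1 + PBM, without overlap.

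Between M0 and M1, 35 of the 41 genes passed the filter, of which 7 were shifted higher in M1 (among them Cycs, Fas, Traf1, Traf2, Tnfaip3 and Mlkl) and 3 lower (Bcl2, Bmf and Birc5), with a median difference of 0.033 beside the -0.34 of all rows. Without M0 replicate 3, 8 were higher and 3 lower, with Casp8 added. After median-of-ratios scaling 10 were higher and 3 lower, with Casp8 and Naip2 among those added. The genes named with values were taken from the 2 with the largest difference in each role. Among the anti-apoptotic BCL2 genes outside the members, Bcl2 itself stood at 2.72, 2.67 and 2.66 FPKM in M0 and at 0.307, 0.621 and 0.271 in M1, and Bcl2l2 (BCL-W) differed by -0.57 with overlap. Among the BH3-only genes, Bmf stood at 3.28, 2.60 and 1.40 FPKM in M0 and at 0.282, 0.269 and 0.187 in M1, and Bbc3, which encodes PUMA, differed by -0.65 without overlap. Neither reached the mean level of Bcl2l11 in M0 (7.75 FPKM).

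Among the inhibitor of apoptosis (IAP) genes, Birc5, which encodes survivin and is known for its expression in dividing cells, stood at 14.2, 4.15 and 14.3 FPKM in M0 and at 0.766, 0.309 and 0.388 in M1. Naip2, whose product senses bacterial proteins for the inflammasome, was higher by 0.96, from 15.1 to 21.2 FPKM in M0 and from 35.2 to 37.1 in M1, just short of the limit. As deposited, Birc3 was the 1 IAP gene of the 7 considered, Birc2, Xiap, Birc6 and Naip5 included, that was shifted higher in M1, while after median-of-ratios scaling Naip2 was shifted as well (1.38). Of the genes for release from mitochondria, Cycs (cytochrome c) was higher by 1.12 and Htra2 differed by -0.46. Among the caspases, Casp8, the initiator at death receptors, was higher by 0.98.

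The largest differences towards M1 outside the members were those of Traf1, Mlkl and Tnfaip3. Traf1, which encodes an adaptor that binds the cIAP proteins, stood at 1.73, 0.730 and 5.42 FPKM in M0, at 28.5, 35.1 and 35.2 in M1, and at 20.4, 35.3 and 14.5 in M1 + PBM. Tnfaip3 stood at 3.90, 5.06 and 19.3 FPKM in M0, at 43.4, 38.6 and 54.3 in M1, and at 23.7, 38.3 and 25.9 in M1 + PBM. In both genes, as in Cflar and Birc3, M0 replicate 3 was the highest M0 library. The ratio of the M1 to the M0 mean was 12.5 for Traf1 and 4.82 for Tnfaip3, and 26.8 and 10.1 without that library. Mlkl, which encodes the pore-forming protein of necroptosis, stood at 5.16, 2.81 and 9.19 FPKM in M0, at 52.4, 49.6 and 52.5 in M1, and at 45.3, 43.3 and 45.7 in M1 + PBM. Its 3 M1 + PBM libraries lay below its 3 M1 libraries, with a difference of -0.20 on the log2 scale (SE 0.088, unadjusted p = 0.0622, adjusted p = 0.90 by limma). With the replicate block its unadjusted p was 0.0406 (SE 0.071, adjusted p = 0.58, limma), and its changes in replicates 1, 2 and 3 were -0.21, -0.19 and -0.19. Ripk3, the kinase that acts on it, overlapped between M0 and M1 and differed by -0.32.

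**Figure D5:**
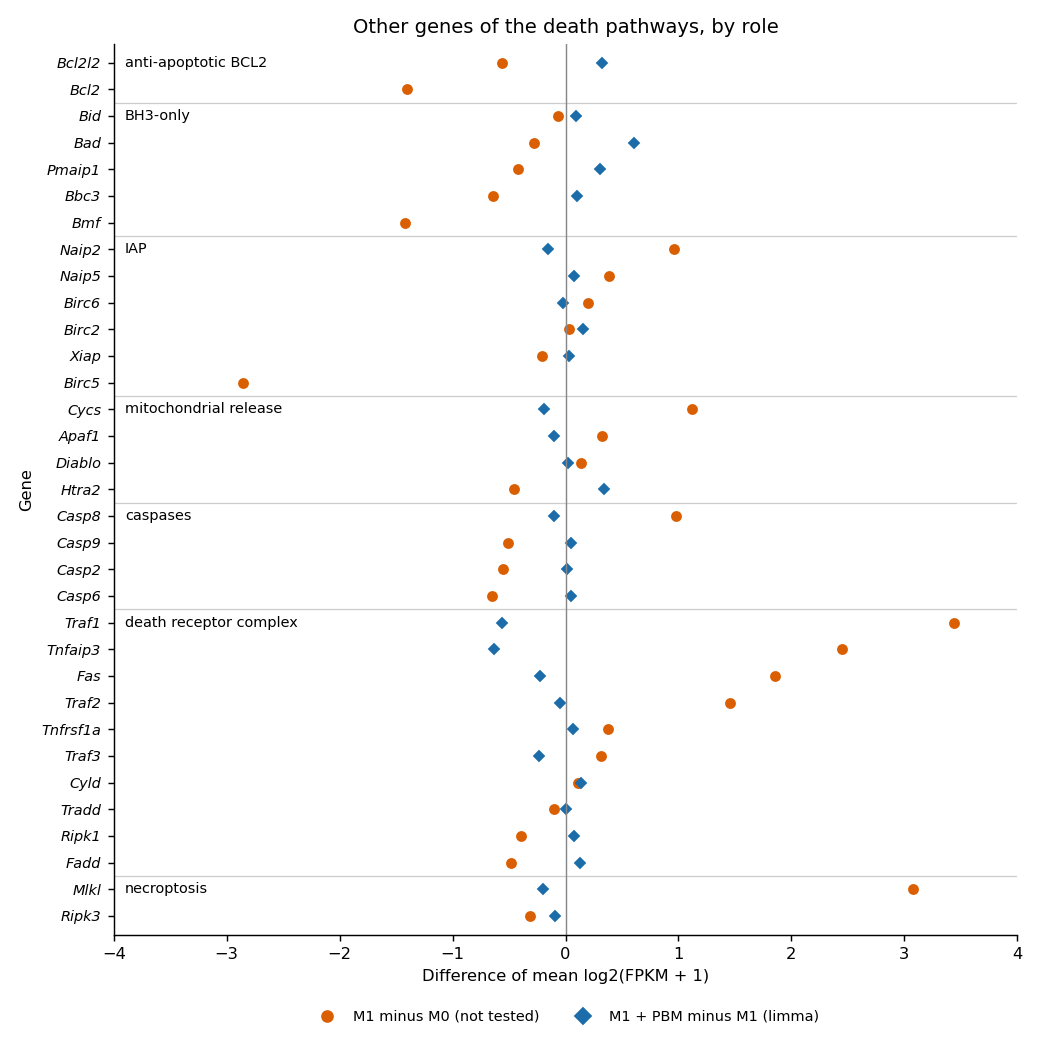
Differences of mean log2(FPKM + 1) for further death-pathway genes that passed the M0 and M1 filter, grouped by role, as M1 minus M0 (circles, not tested) and as M1 + PBM minus M1 (diamonds, limma, where tested). Traf1, Mlkl and Tnfaip3 lie farthest to the right and Birc5 farthest to the left among the circles, while the diamonds lie between Tnfaip3 at -0.63 and Bad at 0.61.

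The rows most like each member over the 9 libraries were named by Pearson's r of log2(FPKM + 1), as a description without a test, since the M0 libraries lie apart from the other 6, and for members that differ between M0 and M1 an r over 9 libraries reflects that gap. For Birc3 they were Pnp2, Ifih1 and Casp4 (r = 0.999, 0.998 and 0.998). For Cflar they were Gm9845, which shares its sequence, Casp4 and Sh3bp4 (r = 0.998 each). Gca came first for both Bcl2a1a and Bcl2a1d (r = 0.994 each), followed by Il18 and Rasgrp1 for Bcl2a1a and by Dyrk2 and Mir155hg for Bcl2a1d. For Bcl2a1b, Gm2541, Cd200 and Clec2d came first (r = 0.985, 0.973 and 0.962). For Bak1 they were Spaca6, Gm6548 and Pml, for Mcl1 Vmp1, Copz1 and Usmg5, and for Bcl2l11 Mbd5, Hip1 and Gm37760. Bax and Bcl2l1, which did not separate M0 from M1, had the lowest leading values, with Slc25a44, Gm12844 and Gm49226 for Bax (r = 0.940 for the first) and Gm43360, Gm13509 and Xbp1 for Bcl2l1 (r = 0.925 for the first).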

How the data were processed

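RNA-seq of 9 libraries was used, 3 each of M0, M1 and M1 + PBM macrophages. FPKM values were deposited by the authors as 2 tables with the same 55655 rows, of which 1 holds M0 and 1 the other groups. The study's methods name Cufflinks, the labels a strand-specific library, and the submitters' processing notes Bowtie 0.12.2 and mm9; the annotation, the treatment of reads with several matches and the filters are not given in the sources used here. A total of 320 rows carry assembler names (MSTRG), with 0.326% to 0.522% of a library's summed FPKM. Symbols from GENCODE release M21 were found for 55154 rows. The sequences and coordinates are of GRCm38, which is not the build in the notes, and none was read by coordinates of the files.

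Counts were not used here. In 1-transcript genes FPKM multiplied by length fell on steps that put the depth at 30560000 to 41780000 fragments, but only 23.6% to 25.6% of values of up to 10 steps were whole within 0.02 of a step (4% by chance), so whole reads were not recovered. Library sums were 380483 to 425219 FPKM, and the 3 largest rows held 30.9% to 37.8% of them. At the lowest depth 1 FPKM in a transcript of 1 kb is about 31 fragments.

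For M1 + PBM against M1, limma 3.58.1 in R 4.3.3 was used (lmFit, eBayes with trend) on log2(FPKM + 1), a scale that understates changes of low genes, and Benjamini-Hochberg adjustment over 12238 rows. The fit was tested on simulated data first. The other steps used Python 3.11.15. The replicate numbers, which come from the labels, were checked as pairs: deviations from the group means correlated at 0.157, 0.469 and 0.462 between same-numbered M1 and M1 + PBM libraries, against -0.491 to 0.0328 for other pairs, and were taken to pair the samples. M0 entered no test. The alternatives were another pseudocount, no FPKM minimum, other scalings, no trend, the replicate block and leaving out each library.

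The members and gene lists were chosen with earlier results of these data known. Named with values were all members, each further gene called (0) and, per role, the 2 genes with the largest M0 to M1 difference, with the 3 rows most like each member. Some genes of the wider list are counted but not reported here. Others are stated as named after their values were seen, and so are Gm29094 and Gm9845, which share bases with members.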

Additional observations from a re-analysis of the deposited data

How the results depend on the processing

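In M1 + PBM against M1, 32 genes were called when the thresholds of the study were applied to the limma fit, 3 higher and 29 lower. The study named the same thresholds but reported far more genes, most of them upregulated, from its own processing. The 32 are therefore not the result of the study, and the reason for the difference was not tested. With a pseudocount of 0.1 there were 75, and leaving out 1 library gave 27 to 89 (67 when M1 replicate 2 was left out and 89 when M1 + PBM replicate 2 was). With the replicate block 45 genes were called. The count at an adjusted p under 0.05, 1 gene, was 0 to 1 when a library was left out. No member was called under any of the 11 alternatives. Members with an unadjusted p of at most 0.05 by limma numbered 1 with the replicate block, beside 8.07% of all rows. They numbered 4 without M1 + PBM replicate 2, beside 7.72% of all rows. Under the other alternatives they numbered 0, beside 2.10% to 9.11% of all rows. Median-of-ratios scaling turned the direction of Bcl2l1 (-0.0072) and the split of all genes at an unadjusted p of at most 0.05 from 366 higher and 177 lower to 240 higher and 290 lower. Leaving out 1 library gave -0.30 to 0.45 for Bcl2l1, -0.25 to 0.54 for Bcl2l11 and -0.19 to 0.040 for Bak1. These fits did not use the replicate number and left 1 library without its pair, so differences between replicates enter these ranges. Within same-numbered replicates Bcl2l1 was higher in 3 of 3 (0.12, 0.014 and 0.064), but its interval with the replicate block, -0.13 to 0.26, includes 0. Bcl2l11 and Bak1 changed sign between replicates. The direction of these members is thus not settled. The other members kept their direction. The summed Bcl2a1 ranged from -0.82 to -0.15. Between M0 and M1, 5 to 7 members were shifted over the alternatives, beside 1062 to 1550 of all rows higher and 1024 to 3066 lower. Of the wider list 7 to 10 genes were shifted higher and 3 to 4 lower, a count chosen after seeing the data. The counts of its genes with an unadjusted p of at most 0.05 under each setting were also chosen after seeing the data. The cause of these movements was not tested. At the lowest depth a value of 1 FPKM rests on about 31 fragments in a transcript of 1 kb, and on fewer in a shorter one. With 3 libraries a group, the intervals of the Bcl2a1 rows are wider than 1.5 on the log2 scale without the replicate block and wider than 1 with it.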
